A study of Homo sapiens with 8 samples.

Results

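The genes described here are 10 nuclear genes that set how much mitochondrial DNA (mtDNA) a cell copies and transcribes. They were chosen by name, with earlier results of these data known. The list was matched by gene symbol to the Ensembl IDs of the deposited count table. All 10 were found, of 60666 IDs in the table, and all 10 passed the filter on low counts among the 13493 genes tested. They act at successive levels. PPARGC1A, PPARGC1B and PPRC1 encode the PGC-1 family of coactivators, NRF1 and ESRRA encode DNA-binding factors that those coactivators work through, and the other members act on mtDNA itself.

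RNA was sequenced in bulk from MRC5 cells, an established line of human fetal lung fibroblasts. The 4 groups of 2 libraries each were shMock cells, which carry a control hairpin, and shMTHFD2 cells, in which the hairpin targets MTHFD2, each either left as controls or given TGF-β1. This cytokine drives fibroblasts to become matrix-producing myofibroblasts. MTHFD2 encodes a folate enzyme of the mitochondrion. The labels give 4 ng of TGF-β1, with no volume, and 24 h. All 4 groups carry a hairpin and 1 hairpin line stands for the knockdown, so an effect of losing MTHFD2 and any other difference between the lines cannot be told apart. Groups were taken from the titles, because the genotype field of 3 shMTHFD2 libraries names a differently numbered gene and the extraction text mentions the epithelial line A549. MTHFD2 stood at 58.7 and 57.0 CPM (counts relative to the scaled library size) in shMock control, 256 and 257 in shMock with TGF-β1, 14.9 and 18.7 in shMTHFD2 control, and 93.6 and 91.7 in shMTHFD2 with TGF-β1, so it was lower in the shMTHFD2 line in both conditions and higher with TGF-β1 in both lines.

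Library totals ran from 18162738 to 22221927 counts. All 10 fibroblast markers were present in every library. Of 8 epithelial markers 5 to 6 had no counts in a library, EPCAM and CDH1 had at most 4, and KRT8 (10.1 to 16.7 CPM) and KRT18 (12.9 to 21.4 CPM) made up nearly all of the summed level. Of 4 endothelial markers PECAM1 and CDH5 had no counts, while TEK (37.1 to 95.8 CPM) and KDR (2.06 to 12.4 CPM) were present. Of 4 leukocyte markers CD68 was present (46.7 to 105 CPM) and PTPRC had at most 2 counts, and of 3 smooth muscle markers CNN1 was present (10.7 to 74.1 CPM) and DES had none. By edgeR, TEK, KDR and CD68 fell and CNN1 rose with TGF-β1 in both lines, KRT8 fell in shMock (log2 -0.53, adjusted p = 0.026, lost in 4 of 17 alternative fits), CD68 was lower in shMTHFD2 control, and CNN1 was lower in shMTHFD2 in both conditions. Whether cells or states marked by these genes had a part in the results was not tested. The labels do not say whether replicates were separate cultures, and p-values therefore reflect only library-to-library spread, possibly of technical origin. In bulk RNA, fewer cells of a kind and less RNA per cell cannot be told apart.

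Mitochondria hold their own small circular genome, which encodes 13 respiratory chain proteins and the ribosomal RNAs of the organelle. POLRMT is the RNA polymerase that transcribes it, TFAM bends and packages the DNA and opens the promoters, and TFB2M helps the polymerase to melt them. POLG is the catalytic subunit of the mtDNA polymerase, and TWNK is the Twinkle helicase that unwinds mtDNA ahead of it. The supply of these proteins comes from nuclear genes, many of which are known targets of NRF1 and of ERRα, the product of ESRRA, with PGC-1 proteins as coactivators.

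The start regions of members that hold the NRF1 recognition sequence are printed first, because NRF1 is itself a member and such targets are its known role. RefSeq start regions (GRCh38.p14, from 250 bases before to 50 after each start) matched 8 of the 10 members, in 9 windows, and NRF1 and TWNK had no entry. The NRF1 motif, spelled GCGCA, any base, then GCGC, was searched on both strands and was present in the windows of 3 members, ESRRA, TFAM and POLRMT, against 5.78% of the 35116 windows in the table. The 200 bases before the start are given 5′ to 3′ on the gene's strand, with the match in capitals.
ESRRA, chr11:64305324-64305523, plus strand: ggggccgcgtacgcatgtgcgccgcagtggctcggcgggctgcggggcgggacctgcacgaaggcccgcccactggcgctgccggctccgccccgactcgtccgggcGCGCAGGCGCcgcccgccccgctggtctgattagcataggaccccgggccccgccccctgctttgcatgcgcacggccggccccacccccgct
TFAM, chr10:58385210-58385409, plus strand: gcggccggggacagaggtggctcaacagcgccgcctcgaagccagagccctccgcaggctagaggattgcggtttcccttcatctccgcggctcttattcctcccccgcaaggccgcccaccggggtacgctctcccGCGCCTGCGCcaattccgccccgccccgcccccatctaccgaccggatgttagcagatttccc
POLRMT, chr19:633538-633737, minus strand: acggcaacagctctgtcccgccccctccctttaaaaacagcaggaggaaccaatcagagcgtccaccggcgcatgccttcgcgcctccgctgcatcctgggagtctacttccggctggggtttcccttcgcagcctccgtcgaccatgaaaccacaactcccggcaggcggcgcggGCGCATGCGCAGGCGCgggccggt
In ESRRA the match lay 93 to 84 bases before the start. In TFAM it lay 63 to 54 bases before the start, read on the opposite strand. POLRMT had overlapping matches that together ran from 24 to 9 bases before the RefSeq start, and the first of them read the same on both strands. These POLRMT matches also lie inside the gene as annotated in GENCODE. The same holds for the TFAM match and the whole TFAM window printed above. Across the groups, ESRRA and POLRMT both had their lowest mean in shMock with TGF-β1 (22.04 and 20.5 CPM) and their highest in shMTHFD2 with TGF-β1 (27.9 and 29.7 CPM), although ESRRA passed in none of the comparisons. When GC content and length entered the edgeR fit, the log2 difference between the lines' TGF-β1 responses went from 0.26 to -0.03 for ESRRA. For POLRMT that difference went from 0.55 to 0.26. TFAM had its highest mean in shMock control (16.7 CPM).

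The start region of PPARGC1A is shown for contrast, because this gene had the widest spread among the members. RefSeq has 2 windows for it, and the one that lies inside the gene as annotated in GENCODE release 29 held none of the motifs searched.
PPARGC1A, chr4:23881102-23881301, minus strand: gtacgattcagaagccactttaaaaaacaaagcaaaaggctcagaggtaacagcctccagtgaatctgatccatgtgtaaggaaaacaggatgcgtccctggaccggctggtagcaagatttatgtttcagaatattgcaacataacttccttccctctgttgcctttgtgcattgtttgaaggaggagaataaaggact
No member window held AAGGTCA, the sequence bound by ERR receptors, which 3.92% of all windows hold. CCGGAAG, bound by GABP, was in the POLRMT window alone among members and in 10.3% of all windows. TGACG, a half-site of the cAMP response element, was in the distal PPARGC1A window and in that of POLG, and in 24.6% of all windows. A match is a description of letters and not of binding.

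The members differed widely in level. On CPM per kilobase of exon, averaged over the 8 libraries, POLG stood highest at 10.7, followed by PPRC1 at 8.98 and ESRRA at 8.43. POLRMT (5.21), TFB2M (4.32), NRF1 (3.77), TFAM (2.38) and TWNK (1.95) followed on the same scale. PPARGC1A, at 0.206, and PPARGC1B, at 0.189, were lowest and close to each other. Dividing by mean transcript length instead kept POLG and PPRC1 in front and the PPARGC1 pair last, and moved TFB2M from rank 5 to rank 8. The most variable member was PPARGC1A, with an SD of log2 CPM of 1.11 over the libraries, and the least variable was POLG, with 0.13.

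**Figure D1:**
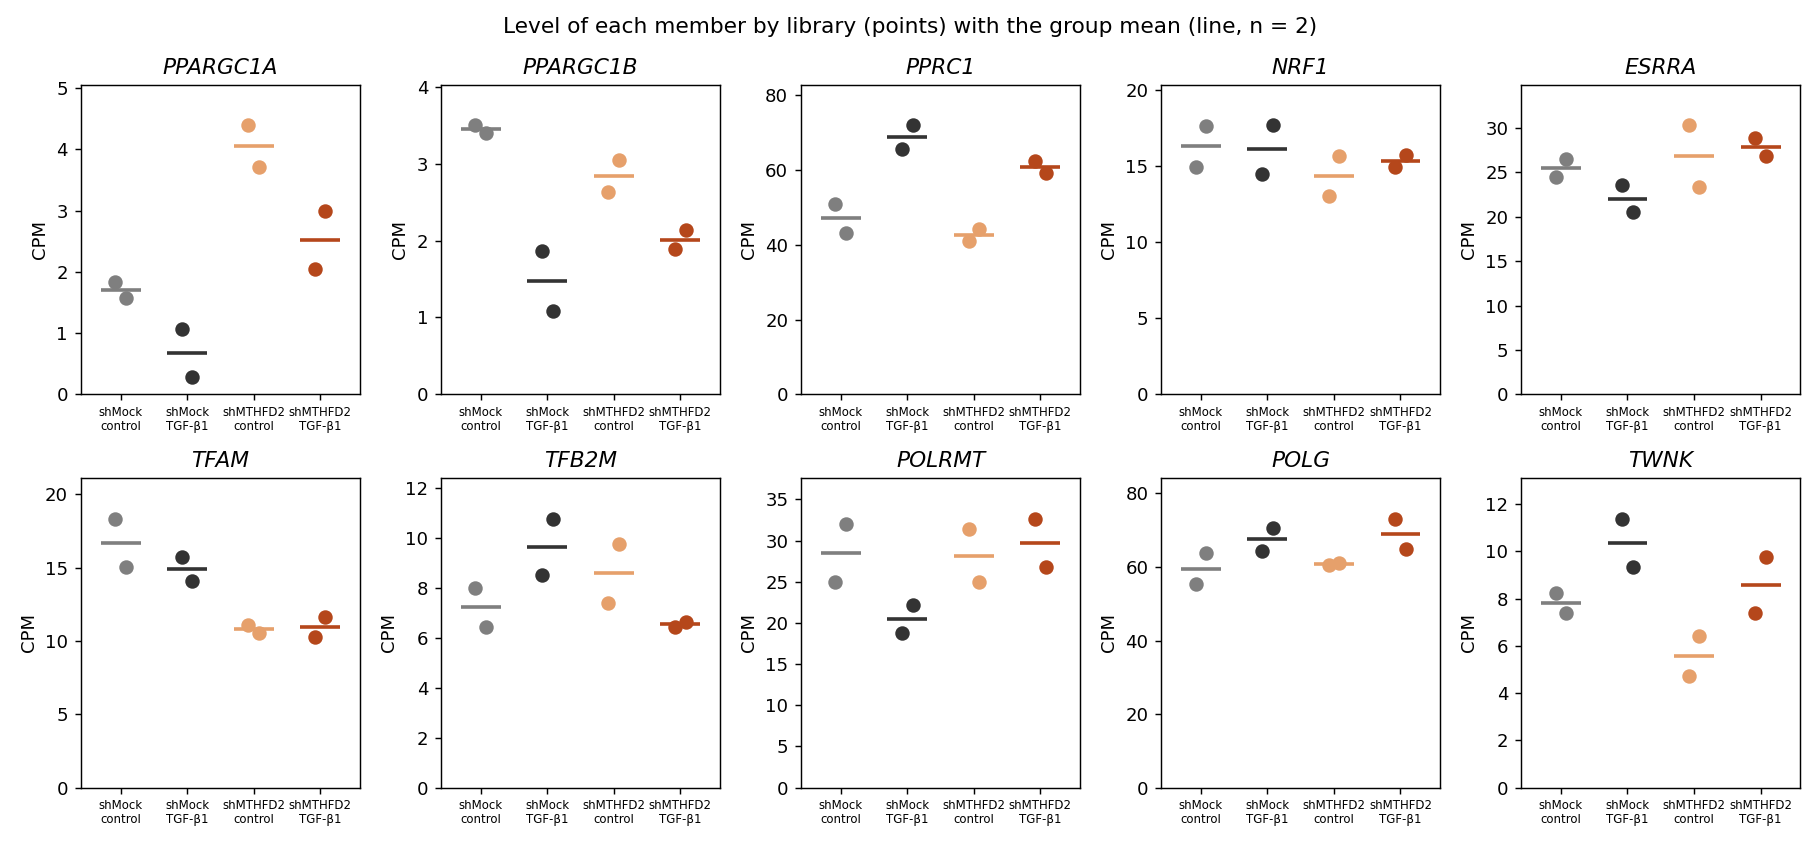
CPM of each of the 10 members by library, in 4 groups of 2 libraries, 1 panel a gene with its own axis, points for libraries and a line for the mean of each group. PPARGC1A is highest in both shMTHFD2 control libraries (4.39 and 3.71) and lowest in shMock TGF-β1 replicate 2 (0.286), and both TGF-β1 groups lie above both control groups for PPRC1.

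Among the PGC-1 coactivators, PPARGC1A was higher in the knockdown line under TGF-β1, PPARGC1B fell with TGF-β1 in the control line, and PPRC1 rose with TGF-β1 in both lines. PPARGC1A (ENSG00000109819, chr4:23755041-23904089, minus strand, GRCh38) encodes PGC-1α, the inducible coactivator best known from exercise and cold. It had 1.84 and 1.58 CPM in shMock control, 1.06 and 0.286 in shMock with TGF-β1, 4.39 and 3.71 in shMTHFD2 control, and 2.04 and 2.99 in shMTHFD2 with TGF-β1. Each shMTHFD2 group therefore lay above its shMock counterpart without overlap, and the lowest library of all was shMock TGF-β1 replicate 2. With 2 libraries a group, a lack of overlap, here and for other members, also occurs at very small differences. An example is EXOG, a gene of mtDNA maintenance, between the lines with TGF-β1 (log2 0.03, edgeR adjusted p = 0.88). The share of all tested genes without overlap was not counted. With TGF-β1 present, PPARGC1A was 3.66-fold higher in shMTHFD2 than in shMock (log2 1.87, SE 0.49, edgeR adjusted p = 0.021). The counts behind this were small, 20 and 5 in shMock against 40 and 59 in shMTHFD2. Without shMock TGF-β1 replicate 2 the log2 difference was 1.24 (edgeR adjusted p = 0.124), without shMTHFD2 TGF-β1 replicate 2 it was 1.57 (adjusted p = 0.107), and without shMock TGF-β1 replicate 1 it was 3.11 (adjusted p = 0.00891).

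In control cells the log2 difference in PPARGC1A was 1.24 (SE 0.42), which missed the threshold in edgeR (adjusted p = 0.074). It passed when the filter on low counts was dropped (adjusted p = 0.0184) and when only the 4 libraries of the comparison entered the edgeR fit (adjusted p = 0.0193), and likewise without shMock TGF-β1 replicate 1 (0.0348) or replicate 2 (0.0351). The TGF-β1 response of PPARGC1A was -1.31 (SE 0.50, edgeR adjusted p = 0.052) in shMock and -0.69 (SE 0.41, adjusted p = 0.27) in shMTHFD2. The value in shMock lay so near the threshold that 8 of the 17 alternative fits called it, DESeq2 among them (adjusted p = 0.0452). The difference between those responses was 0.63 (SE 0.65, edgeR adjusted p = 0.71). Leaving out shMock TGF-β1 replicate 2 made it -0.0066 (edgeR adjusted p = 0.998), and leaving out replicate 1 of that group made it 1.87 (adjusted p = 0.338).

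PPARGC1B (ENSG00000155846, chr5:149730298-149855022, plus strand) encodes PGC-1β, a coactivator linked to basal mitochondrial content. It stood at 3.50 and 3.40 CPM in shMock control, 1.86 and 1.09 in shMock with TGF-β1, 2.63 and 3.04 in shMTHFD2 control, and 1.89 and 2.13 in shMTHFD2 with TGF-β1. In both lines the TGF-β1 libraries lay below the control libraries. PPARGC1B fell 2.32-fold with TGF-β1 in shMock (log2 -1.22, SE 0.36, edgeR adjusted p = 0.016). That call was lost without shMock control replicate 1 (adjusted p = 0.0614), shMock control replicate 2 (0.0611) or shMock TGF-β1 replicate 2 (log2 -0.89, edgeR adjusted p = 0.129). In shMTHFD2 the response was -0.50 and did not pass (edgeR adjusted p = 0.36), and the difference between the lines' responses was 0.72 (adjusted p = 0.56). Between the lines PPARGC1B differed by 0.44 with TGF-β1 (edgeR adjusted p = 0.49) and by -0.28 without it (adjusted p = 0.67).

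PPRC1 (ENSG00000148840, chr10:102132994-102150331, plus strand) encodes PRC, the family member known as a growth-responsive partner of NRF1. It had 50.95 and 43.07 CPM in shMock control, 65.58 and 71.88 in shMock with TGF-β1, 41.09 and 44.15 in shMTHFD2 control, and 62.22 and 59.01 in shMTHFD2 with TGF-β1. All 4 TGF-β1 libraries lay above all 4 control libraries. PPRC1 rose 1.46-fold with TGF-β1 in shMock (log2 0.55, SE 0.10, edgeR adjusted p = 0.00046) and 1.42-fold in shMTHFD2 (log2 0.51, SE 0.10, adjusted p = 0.0012). These were the only calls on a member that held in all 17 alternatives, with a highest adjusted p of 0.00856 in shMock and 0.0172 in shMTHFD2. The difference between the responses was -0.04 (SE 0.14, edgeR adjusted p = 0.93). Between the lines PPRC1 differed by -0.18 with TGF-β1 (adjusted p = 0.25) and by -0.14 without it (edgeR adjusted p = 0.41).

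The DNA-binding factors NRF1 and ESRRA passed in none of the comparisons. NRF1 (ENSG00000106459, chr7:129611714-129757082, plus strand) had 14.98 and 17.67 CPM in shMock control, 14.52 and 17.70 in shMock with TGF-β1, 13.04 and 15.68 in shMTHFD2 control, and 14.93 and 15.73 in shMTHFD2 with TGF-β1. The replicates of a group differed by about as much as any of the groups did, and its group means ran from 14.4 to 16.3 CPM. ESRRA (ENSG00000173153, chr11:64305572-64316743, plus strand) had 24.44 and 26.53 CPM in shMock control, 23.51 and 20.56 in shMock with TGF-β1, 30.28 and 23.31 in shMTHFD2 control, and 28.89 and 26.84 in shMTHFD2 with TGF-β1. With TGF-β1, both shMTHFD2 libraries lay above both shMock libraries, and the log2 difference of 0.34 did not pass (edgeR adjusted p = 0.12). Scaled to library totals instead of TMM, it was 0.43 and passed (edgeR adjusted p = 0.0493). That scaling moved the median of all tested genes in this comparison from 0.006 to 0.096. ESRRA overlaps TRMT112 on the opposite strand, and since the use of strand in counting is not given in the sources used here, its level is uncertain to that extent.

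**Figure D2:**
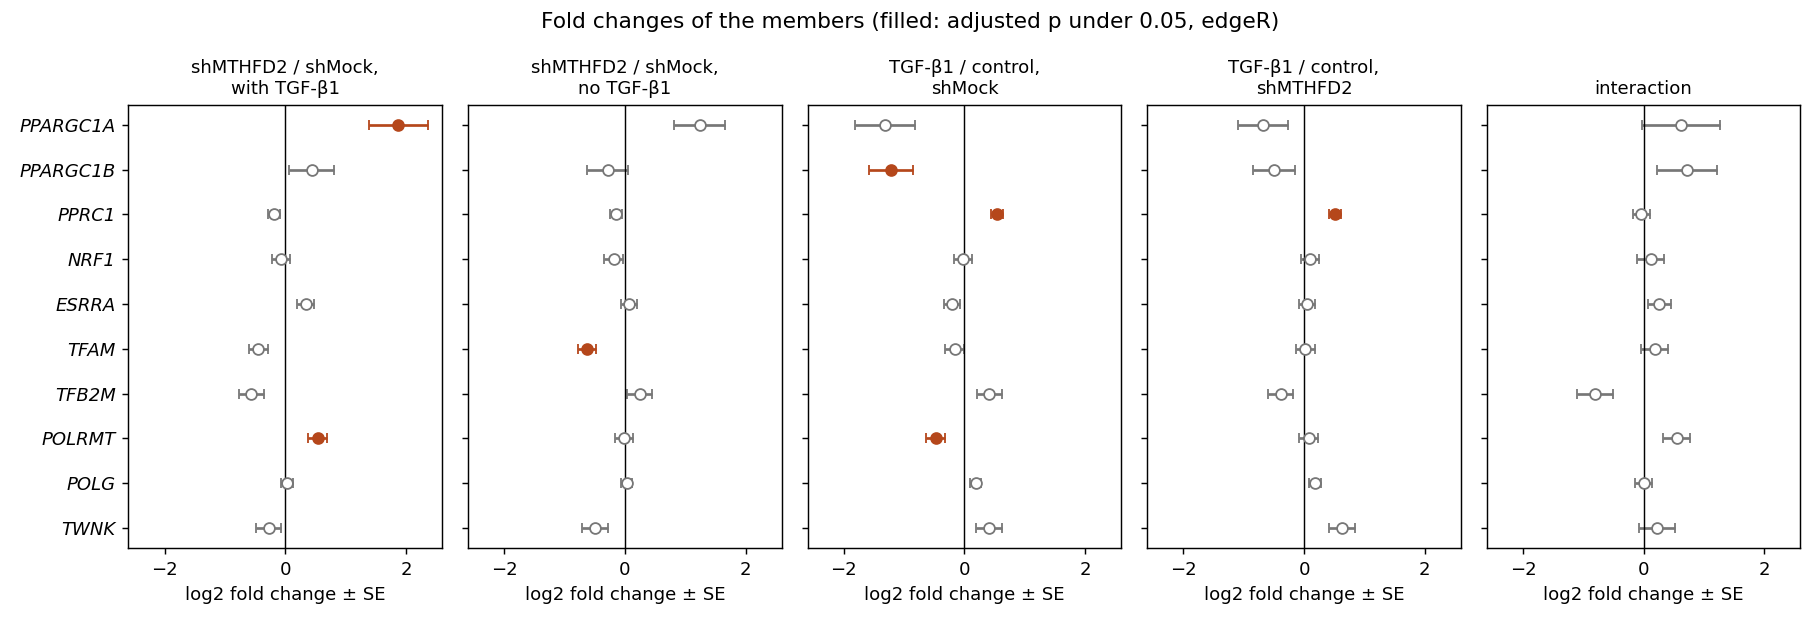
Log2 fold change of each member in the knockdown comparisons, the TGF-β1 responses and the interaction, from the edgeR fit, with bars of 1 approximate SE and filled points where the adjusted p was under 0.05. PPARGC1A has the widest bars and the largest difference (1.87, knockdown with TGF-β1), and PPRC1 sits at 0.55 and 0.51 in the TGF-β1 responses of shMock and shMTHFD2.

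Of the proteins that transcribe mtDNA, TFAM was lower in shMTHFD2 control cells and POLRMT differed between the lines under TGF-β1. TFAM (ENSG00000108064, chr10:58385022-58399221, plus strand) had 18.34 and 15.06 CPM in shMock control, 15.74 and 14.09 in shMock with TGF-β1, 11.09 and 10.52 in shMTHFD2 control, and 10.29 and 11.62 in shMTHFD2 with TGF-β1. All 4 shMTHFD2 libraries lay below all 4 shMock libraries. Without TGF-β1, TFAM was 1.55-fold lower in shMTHFD2 (log2 -0.63, SE 0.15, edgeR adjusted p = 0.016). In TGF-β1-treated cells it differed by -0.45 (SE 0.16) and missed the threshold (edgeR adjusted p = 0.074). The first call was lost without shMock control replicate 1 (log2 -0.48, edgeR adjusted p = 0.152), shMTHFD2 control replicate 1 (0.0551) or shMTHFD2 control replicate 2 (0.121). The TGF-β1 response of TFAM was -0.16 in shMock (edgeR adjusted p = 0.43) and 0.02 in shMTHFD2 (adjusted p = 0.95).

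POLRMT (ENSG00000099821, chr19:617224-633604, minus strand) had 24.94 and 31.99 CPM in shMock control, 18.83 and 22.17 in shMock with TGF-β1, 31.43 and 24.91 in shMTHFD2 control, and 32.67 and 26.74 in shMTHFD2 with TGF-β1. The shMock TGF-β1 libraries were the lowest, and the other 3 groups overlapped. POLRMT fell 1.39-fold with TGF-β1 in shMock (log2 -0.47, SE 0.16, edgeR adjusted p = 0.028), and in the presence of TGF-β1 it was 1.45-fold higher in shMTHFD2 than in shMock (log2 0.54, SE 0.16, adjusted p = 0.036). Both comparisons use the same shMock TGF-β1 libraries. In shMTHFD2 the response was 0.07 (edgeR adjusted p = 0.78), and the difference between the responses, 0.55 (SE 0.22), had an unadjusted p of 0.0242 and an edgeR adjusted p of 0.32.

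The POLRMT transcript is rich in G and C, at 65.1% of exon bases, and both of its calls were lost when GC content and length entered the edgeR fit as offsets. The response in shMock then was -0.20 (adjusted p = 0.263) and the difference between the lines under TGF-β1 was 0.35 (edgeR adjusted p = 0.103). Leaving out shMock TGF-β1 replicate 1 also ended both (-0.36, edgeR adjusted p = 0.191, and 0.43, adjusted p = 0.22). The response in shMock was further lost without shMock control replicate 2 (-0.26, edgeR adjusted p = 0.315), and the difference between the lines without shMTHFD2 TGF-β1 replicate 1 (0.37, adjusted p = 0.25).

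TFB2M (ENSG00000162851, chr1:246540560-246566324, minus strand) had 7.98 and 6.45 CPM in shMock control, 8.51 and 10.77 in shMock with TGF-β1, 7.40 and 9.75 in shMTHFD2 control, and 6.42 and 6.65 in shMTHFD2 with TGF-β1. The shMock libraries were higher with TGF-β1 and the shMTHFD2 libraries lower, in each case without overlap. With 2 libraries a group, such separation also occurs at very small differences. The responses were 0.41 in shMock (edgeR adjusted p = 0.14) and -0.39 in shMTHFD2 (adjusted p = 0.22), and neither passed. Their difference, -0.80 (SE 0.30), was the largest interaction in size among the 10 members, with an unadjusted p of 0.0167 and an edgeR adjusted p of 0.30. With TGF-β1, TFB2M differed by -0.56 between the lines (edgeR adjusted p = 0.099).

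**Figure D3:**
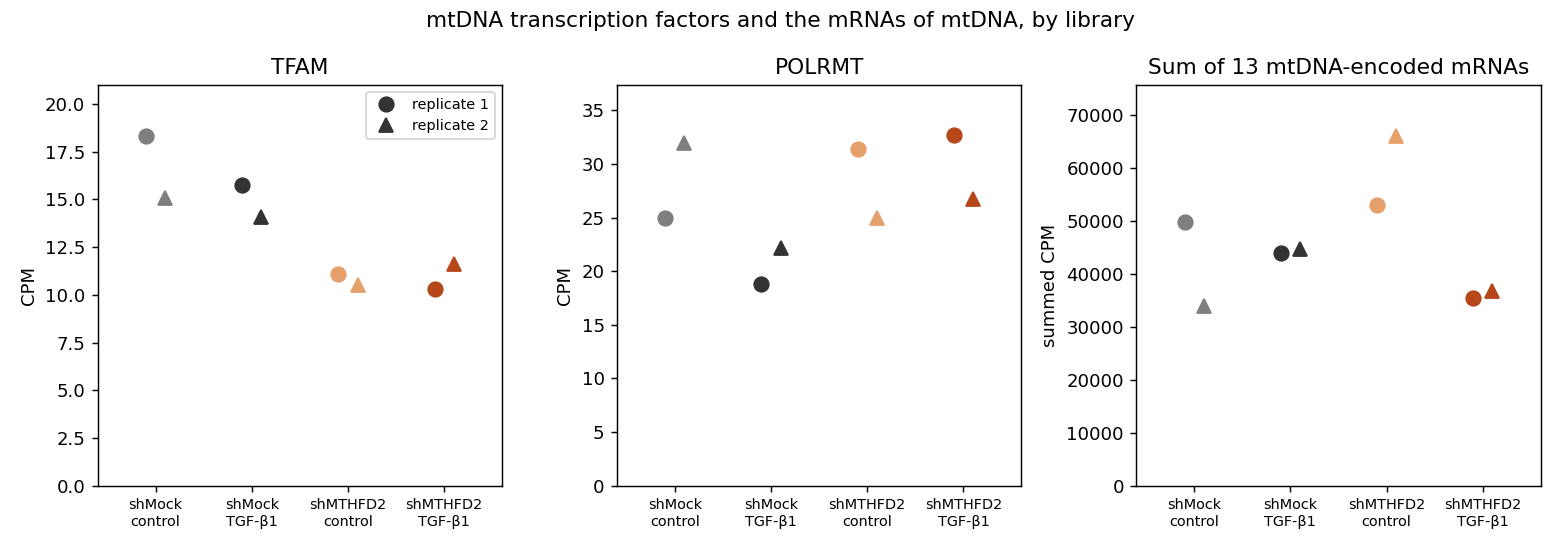
CPM of TFAM and POLRMT and the summed CPM of the 13 mRNAs encoded by mtDNA, by library, with circles for replicate 1 and triangles for replicate 2. TFAM separates the lines (10.29 to 11.62 in shMTHFD2 against 14.09 to 18.34 in shMock), POLRMT is lowest in shMock with TGF-β1, and the summed mRNAs are highest in shMTHFD2 control.

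The mtDNA replication proteins passed in none of the comparisons. POLG (ENSG00000140521, chr15:89305198-89334861, minus strand) had 55.26 and 63.69 CPM in shMock control, 64.41 and 70.74 in shMock with TGF-β1, 60.42 and 61.02 in shMTHFD2 control, and 73.18 and 64.90 in shMTHFD2 with TGF-β1. In each line the TGF-β1 libraries lay above the control libraries, by a log2 difference of 0.18 in shMock (edgeR adjusted p = 0.15) and 0.19 in shMTHFD2 (adjusted p = 0.19). With GC and length offsets the response in shMock was 0.33 and passed (edgeR adjusted p = 0.00764). Exons of POLG overlap FANCI on the opposite strand.

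TWNK (ENSG00000107815, chr10:100987367-100994401, plus strand) had 8.25 and 7.38 CPM in shMock control, 11.38 and 9.34 in shMock with TGF-β1, 4.71 and 6.40 in shMTHFD2 control, and 7.39 and 9.74 in shMTHFD2 with TGF-β1. The shMTHFD2 control libraries were the lowest of all, and in each line the TGF-β1 libraries lay higher. The response was 0.63 in shMTHFD2 (SE 0.22, edgeR adjusted p = 0.051) and 0.41 in shMock (adjusted p = 0.15). The value in shMTHFD2 passed without the filter on low counts (edgeR adjusted p = 0.022), with GC and length offsets (0.0492), and without shMTHFD2 control replicate 2 (0.0421) or shMTHFD2 TGF-β1 replicate 1 (0.0326). Between the lines TWNK differed by -0.28 with TGF-β1 (edgeR adjusted p = 0.44) and -0.50 without it (adjusted p = 0.17). It overlaps MRPL43 on the opposite strand.

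Counted over the list, few members passed in any comparison, and the number called lay within 2 genes of the share of all tested genes. With TGF-β1 present, 2 of 10 were higher in shMTHFD2 by edgeR (PPARGC1A and POLRMT), where 4.83% of all tested genes were, and 0 were lower, where 8.23% were (13.1% in either direction). The unadjusted p was under 0.05 for 5 members, and DESeq2 called the same numbers, 2 and 0. Without TGF-β1, edgeR called 0 higher and 1 lower (TFAM), where 3.25% of all genes were called higher and 8.19% lower (11.4% in all), with 3 members at an unadjusted p under 0.05 and 0 and 1 called by DESeq2. With TGF-β1 in shMock, 1 member rose (PPRC1) and 2 fell (PPARGC1B and POLRMT), where 17.3% of all genes rose and 18.1% fell (35.4% in all). DESeq2 called 1 and 3 there, and 4 members had an unadjusted p under 0.05. In shMTHFD2, 1 rose (PPRC1) and 0 fell by edgeR and by DESeq2, where 12.8% rose and 11% fell (23.8% in all), with 2 members at an unadjusted p under 0.05. The members' median log2 values were -0.02, -0.08, -0.09 and 0.06 in these 4 comparisons, and the medians of all tested genes were 0.01, -0.01, -0.02 and -0.01. For the interaction edgeR called 0 of 10, with 2 at an unadjusted p under 0.05 (TFB2M and POLRMT). DESeq2 gave an adjusted p for only 2 members (PPRC1 and POLG), called neither, and left TFB2M and POLRMT without one, and edgeR called 0.0889% of all genes (0.0371% higher and 0.0519% lower).

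**Figure D4:**
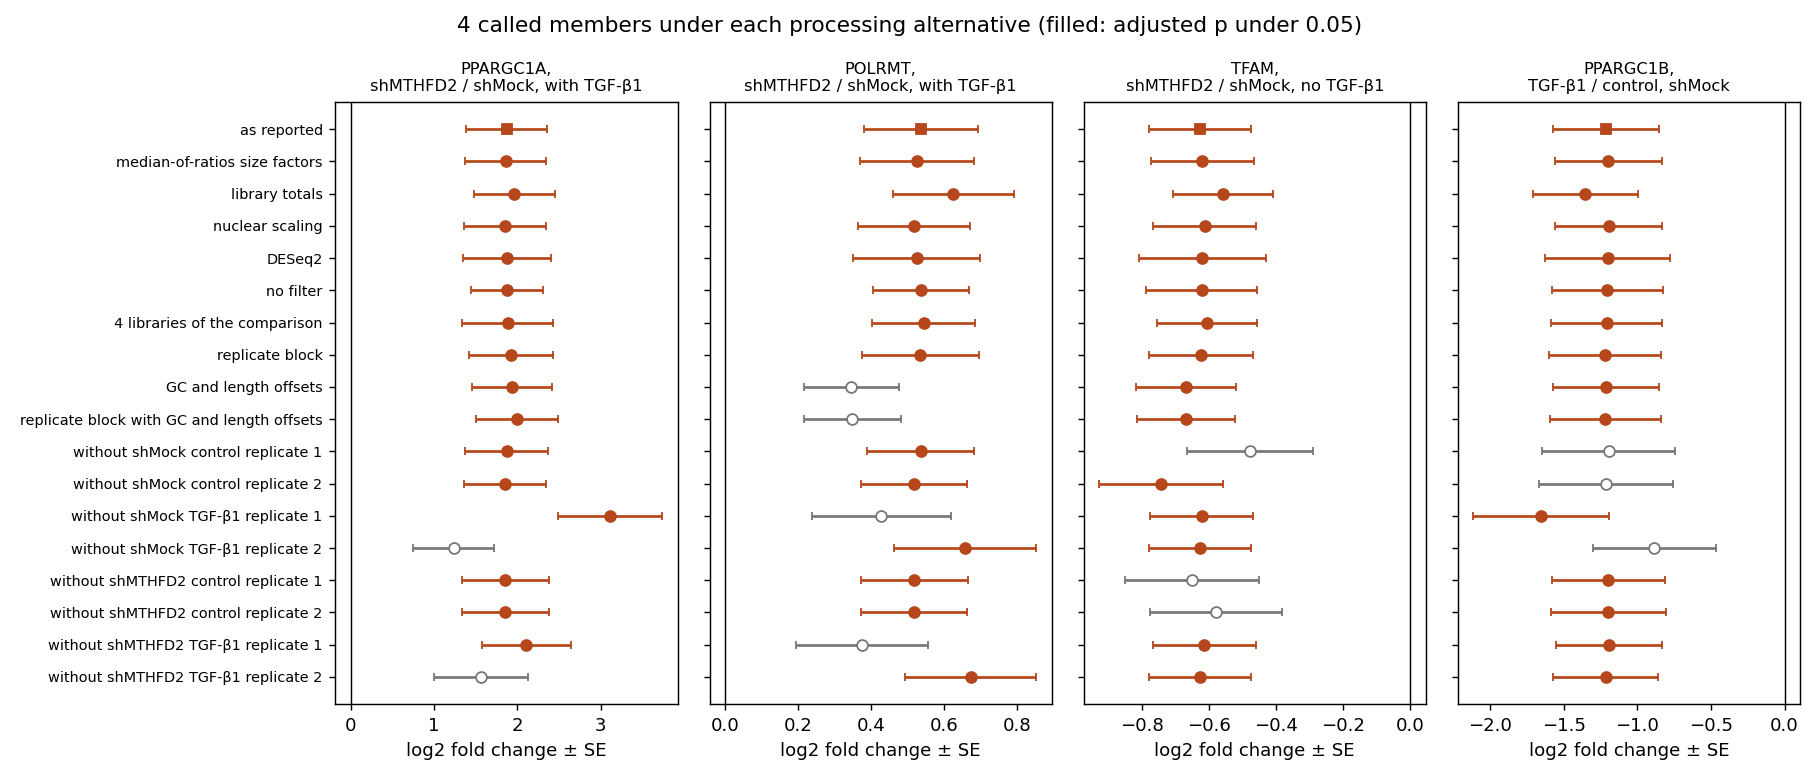
Log2 fold change of 4 called members in 1 comparison each, as reported (squares) and under the 17 alternatives (circles), with bars of 1 approximate SE and filled symbols where the adjusted p was under 0.05. PPARGC1A spreads farthest, from 1.24 to 3.11 for the knockdown with TGF-β1, and POLRMT has 4 open circles, among them both fits with GC and length offsets.

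The transcripts made by this machinery, the 13 mRNAs of mtDNA, were measured in the same libraries. Their summed level was 49844 and 33998 CPM in shMock control, 44027 and 44664 in shMock with TGF-β1, 53036 and 65975 in shMTHFD2 control, and 35473 and 36795 in shMTHFD2 with TGF-β1. In both lines the control replicates lay farther apart than the replicates of the TGF-β1 groups. The 13 mRNAs come from the same small genome, so their levels are not independent of each other. The numbers called below are therefore not numbers of separate observations. In shMTHFD2, all 13 fell with TGF-β1 by edgeR (median log2 -0.72), among them MT-CO1 (-0.71, adjusted p = 0.0013), and DESeq2 called 11. Of all tested genes, edgeR called 11% lower in that comparison. In shMock, edgeR and DESeq2 called 0 of 13 (median 0.15, and 0 at an unadjusted p under 0.05), and the fit without the low-count filter called 4 higher. Without TGF-β1, 10 of 13 were higher in shMTHFD2 by edgeR (median 0.54), but DESeq2 called 0, and so did edgeR without shMock control replicate 2 or without shMTHFD2 control replicate 2. Of all tested genes, edgeR called 3.25% higher in shMTHFD2 without TGF-β1. With TGF-β1 present, 0 passed by edgeR or DESeq2 (median -0.33, 6 at an unadjusted p under 0.05), and 8 were called lower from the 4 libraries of that comparison alone. The interaction had a median of -0.86, with 0 called by edgeR, 0 by DESeq2 (which gave an adjusted p for 12) and 13 at an unadjusted p under 0.05, and 13 called lower without the filter. Whether the levels of TFAM, POLRMT or TFB2M had a part in these values was not tested.

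Among the other factors of mtDNA transcription, TFB1M, a methyltransferase of mitochondrial ribosomal RNA and the paralogue of TFB2M, rose with TGF-β1 in both lines (log2 0.70, SE 0.12, edgeR adjusted p = 0.00034 in shMock, and 0.81, SE 0.12, adjusted p = 0.0001 in shMTHFD2). MTERF2, of the termination factor family, fell in both (-1.02, edgeR adjusted p = 0.00089, and -0.91, adjusted p = 0.0021), and its relative MTERF3 fell in shMock (-0.74, adjusted p = 0.0044). All of these calls held in the 17 alternatives. In all, 1 of 6 rose and 2 fell in shMock, and 1 rose and 1 fell in shMTHFD2, beside 35.4% and 23.8% of all tested genes called. Between the lines edgeR and DESeq2 called 0 of 6 in either condition, with 1 at an unadjusted p under 0.05 in each. By edgeR, 13.1% of all tested genes were called with TGF-β1 and 11.4% without it. The members most abundant on CPM were MTERF4 and TFB1M, which differed by 0.12 and 0.20 with TGF-β1 and by 0.25 and 0.09 without it.

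Of 13 other genes of mtDNA replication and maintenance, edgeR and DESeq2 called 0 between the lines in either condition, with 1 with TGF-β1 and 2 without it at an unadjusted p under 0.05. The edgeR shares of all tested genes were 13.1% and 11.4%. The most abundant on CPM, LONP1 and RNASEH1, differed by 0.19 and -0.10 with TGF-β1 and by -0.12 and -0.01 without it. With TGF-β1, 3 rose and 1 fell in each line, beside 35.4% of all tested genes called in shMock and 23.8% in shMTHFD2. LIG3, the mitochondrial DNA ligase, rose in both (0.58, edgeR adjusted p = 0.0017 in shMock, and 0.50, adjusted p = 0.0059 in shMTHFD2), as a call that was lost in shMTHFD2 without control replicate 1 (adjusted p = 0.1). TOP3A rose in shMock (0.49) and TOP1MT, the mitochondrial topoisomerase, fell there (-0.61), while the protease LONP1 rose in shMTHFD2 (0.37) and MPV17 fell (-0.32). Of these 4 calls, each was lost in 1 to 3 of the 17 alternatives, with a highest edgeR adjusted p of 0.0658 for TOP3A, 0.0714 for TOP1MT, 0.135 for LONP1 and 0.0622 for MPV17.

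Among 8 genes of mitochondrial nucleotide supply, TK2, the mitochondrial thymidine kinase, was lower in shMTHFD2 in both conditions (-0.35, edgeR adjusted p = 0.021 with TGF-β1, and -0.46, adjusted p = 0.0043 without it). SUCLG1 was also lower (-0.43 and -0.38) and RRM2B, a ribonucleotide reductase subunit, was higher (0.28 and 0.36), so that 1 was higher and 2 lower in each condition. Of all tested genes, 13.1% were called with TGF-β1 and 11.4% without it. The TK2 call without TGF-β1 held in all 17 alternatives, and the other 5 were lost in 2 to 5 of them. With TGF-β1, 1 rose in shMock (RRM2B, 0.25, lost in 7 alternatives) and 1 fell in shMTHFD2 (SLC25A36, -0.34, lost in 3). The shares of all tested genes called there were 35.4% and 23.8%.

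Of 16 genes of mitochondrial RNA processing, PNPT1, the polynucleotide phosphorylase of mitochondria, was lower in shMTHFD2 with TGF-β1 (-0.68, SE 0.09, edgeR adjusted p = 0.00021) and without it (-0.86, SE 0.09, adjusted p = 2.2e-05), in all 17 alternatives. Its group means were 79.4 and 71.3 CPM in shMock without and with TGF-β1 and 43.7 and 44.6 CPM in shMTHFD2. LRPPRC, which stabilises mitochondrial mRNAs, was higher in shMTHFD2 control (0.27, edgeR adjusted p = 0.045), a call lost in 7 alternatives. With TGF-β1, TBRG4 fell in shMock (-0.30, edgeR adjusted p = 0.046, lost in 14 alternatives), and in shMTHFD2 edgeR and DESeq2 called 0 of 16, with 2 at an unadjusted p under 0.05. By edgeR, 35.4% of all tested genes were called in shMock and 23.8% in shMTHFD2. The most abundant there on CPM, FASTK and GRSF1, had responses of -0.04 and -0.08.

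Other regulators of mitochondrial biogenesis were listed as 20 genes, of which 18 passed the filter. MYC was lower in shMTHFD2 with TGF-β1 (-0.79, edgeR adjusted p = 0.0052) and without it (-0.88, adjusted p = 0.002). It was the only one called between the lines with TGF-β1, beside 13.1% of all tested genes. PPARA was higher in control cells (0.46, edgeR adjusted p = 0.0061), a call lost without shMock control replicate 2 (adjusted p = 0.0604). In shMock 3 rose with TGF-β1 and 4 fell, and in shMTHFD2 2 rose and 3 fell. Of all tested genes, 35.4% were called in shMock and 23.8% in shMTHFD2. PPARG, the receptor PGC-1α was first described with, fell in both lines (-1.70, edgeR adjusted p = 1.3e-07, and -1.20, adjusted p = 6.3e-06). ESRRG, the close relative of ESRRA, had 3.05 and 3.0 CPM in shMock control, 1.49 and 0.573 in shMock with TGF-β1, 5.64 and 7.38 in shMTHFD2 control, and 1.38 and 1.78 in shMTHFD2 with TGF-β1. It fell with TGF-β1 in shMock (-1.54, edgeR adjusted p = 0.0086) and in shMTHFD2 (-2.04, adjusted p = 0.00084), and only the call in shMock was lost, without TGF-β1 replicate 2 (adjusted p = 0.087). NCOR1 and NRIP1, corepressors that oppose PGC-1 targets, rose in shMock (0.49 and 0.43), where the NRIP1 call was lost in 5 alternatives. TFEB and GABPB1 rose in shMTHFD2 (0.48 and 0.46), and were lost in 12 and 4.

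Nuclear genes of the respiratory chain are known targets of these regulators. Of 31 nuclear respiratory chain subunits, 2 were higher in shMTHFD2 with TGF-β1 (NDUFS7 0.57 and NDUFV1 0.36) and 3 were lower, led by COX7C (-0.86, edgeR adjusted p = 0.00014) and CYCS, cytochrome c (-0.46, adjusted p = 0.0084), beside 13.1% of all tested genes called in that comparison. Without TGF-β1 only COX7C passed (-0.99, edgeR adjusted p = 3.1e-05), beside 11.4% of all tested genes. The COX7C calls and that of NDUFS7 held in the 17 alternatives, CYCS was lost in 1 and NDUFV1 in 5. With TGF-β1 in shMock, 2 rose (CYCS 0.38 and NDUFS1 0.31) and 8 fell, led by NDUFS7 (-0.47) and NDUFV2 (-0.46). In shMTHFD2, 1 fell (SDHD, -0.30, lost in 2 alternatives). Of all tested genes, 17.3% rose and 18.1% fell in shMock, and 12.8% rose and 11% fell in shMTHFD2. The interaction was called for 0 of the 31. The count of 8 that fell in shMock became 21 with library-total scaling, under which the median of all tested genes moved from -0.02 to -0.16, and 5 with GC and length offsets. In shMock, CYCS was lost in 2 alternatives, NDUFS1 in 5 and NDUFS7 in 3.

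Of 17 listed target genes of fuel oxidation, 15 were tested. UCP2, an inner membrane carrier, and LPIN1, a lipin that also acts as a PGC-1α coactivator, were the only ones called between the lines, and both were lower in shMTHFD2 with TGF-β1 (-0.50 and -0.37, edgeR adjusted p = 0.0065 and 0.0049) and without it (-0.50 and -0.43, adjusted p = 0.011 and 0.0014). Of all tested genes, 13.1% were called with TGF-β1 and 11.4% without it. The UCP2 calls were lost in 2 alternatives each and that of LPIN1 with TGF-β1 in 1. With TGF-β1, UCP2 rose in both lines (2.15-fold in each, edgeR adjusted p = 1.4e-06 in shMock and 2.6e-06 in shMTHFD2) and LPIN1 fell in both (-0.51, adjusted p = 7.8e-05, and -0.44, adjusted p = 0.00039), in all 17 alternatives. In shMock 4 fell in all, IDH3A (-0.37) being the next, and in shMTHFD2 2 fell, the other being HADHA (-0.28), and these were lost in 3 and 4 alternatives. Of all tested genes, 18.1% fell in shMock and 11% in shMTHFD2. For the interaction, edgeR called 0 genes in any of these other lists, and so did DESeq2, which gave an adjusted p for 29 of the 31 respiratory chain subunits but for only 1 of the 6 other mtDNA transcription factors and 8 of the 18 other regulators. At an unadjusted p under 0.05 were 8 respiratory chain subunits, 4 of the other regulators and at most 1 in each of the lists of mtDNA transcription, mtDNA maintenance, nucleotide supply, RNA processing and fuel oxidation.

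The genes most like PPARGC1A over the 8 libraries, by the root-mean-square difference of centred log2 CPM, were STOX2 (0.466), SYS1-DBNDD2 (0.481), MEOX2 (0.504), SMIM43 (0.517) and ZNRF2 (0.525). SYS1-DBNDD2 is a read-through transcript that may share reads with its component genes. These genes were picked for their likeness over the same libraries, so their values are a description with no test. With TGF-β1 present, the log2 difference between the lines was 2.03 for MEOX2, a homeobox factor, 1.71 for STOX2, 1.44 for SMIM43, 1.34 for SYS1-DBNDD2 and 0.91 for ZNRF2, beside 1.87 for PPARGC1A. Counts in shMock TGF-β1 replicate 2 were 2 for SYS1-DBNDD2, 7 for ZNRF2, 9 for MEOX2 and 9 for STOX2. SMIM43 had 35 counts there and PPARGC1A had 5, so the likeness rests in part on small counts.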

How the data were processed

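Whole-number counts per gene for 60666 Ensembl IDs were deposited by the authors, 1 column a library, although the file name speaks of FPKM. Per the submitters' processing notes, STAR 2.7.1a, DESeq2 1.32.0 and GRCh38 were used, and the counter, annotation and use of strand were not given in the sources used here. Symbols were matched for 60437 IDs from a name table, positions and exon lengths come from GENCODE release 29 (GRCh38, 58420 IDs), and sequences from RefSeq.

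From these counts, edgeR 4.0.16 in R 4.3.3 fitted its quasi-likelihood test to all 8 libraries with 1 mean a group (4 residual degrees of freedom), TMM factors and genes with a mean CPM of at least 1. Adjusted p-values are Benjamini-Hochberg over the 13493 tested genes, with a threshold of 0.05. Levels are CPM on TMM-scaled totals, SEs are approximate (derived from the F statistic), and a log2 difference is knockdown minus control hairpin, or TGF-β1 minus control. A library's 3 counts correspond to 0.135 to 0.172 CPM, for counting error only. The 17 alternatives, among them DESeq2 1.42.0, are described at the end. All members are named. From each other list, up to 2 higher and 2 lower genes past the threshold with the largest change are named, or the 2 most abundant where none passed. The mRNAs of mtDNA are an exception, since only MT-CO1 is named there, as an example and not for the size of its change. The members and lists were chosen with earlier results of these data known.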

Additional observations from a re-analysis of the deposited data

How the results depend on the processing

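The alternatives were median-of-ratios factors, library totals, scaling on nuclear genes, DESeq2, no low-count filter, the 4 libraries of a comparison alone, a replicate block, GC and length offsets, block and offsets together, and each of the 8 libraries left out. Of 840 recomputed member values, 744 kept direction and call, 16 lost a call, 19 gained one, 53 changed sign while uncalled, 8 (DESeq2, interaction) had no adjusted p, and 0 reversed a call. The interaction has no fit of 4 libraries alone. With library totals, ESRRA also passed as higher in shMTHFD2 under TGF-β1. Members called higher with knockdown under TGF-β1 numbered 2, and 1 with GC and length offsets, 1 with the replicate block added to them, and 1 to 2 with a library left out. Without TGF-β1, 0 were higher, but 1 without the filter and 1 from 4 libraries, and 0 to 1 with a library left out, where the 1 lower became 0 to 1. For TGF-β1 in shMock, 1 rose, but 2 with the offsets and 2 with block and offsets, and the 2 that fell became 0 to 3 with a library left out. In shMTHFD2, 1 rose, but 2 without the filter, 2 with the offsets, and 1 to 2 with a library left out. The TGF-β1 response of CYC1 in shMock, called at -0.30, was 0.0123 with the offsets and 0.0133 with block and offsets, and the cause was not tested. No pairing of the replicate numbers is stated. Deviations between replicates correlated little from group to group (-0.02 to 0.07), which cannot show whether the samples were paired. With the replicate block alone the member counts were 2 and 0, 0 and 1, 1 and 2, and 1 and 0, higher and lower in the same order. Over all tested genes, library totals gave 1338 higher and 718 lower for the knockdown with TGF-β1 (652 and 1110 with TMM), 3929 lower for TGF-β1 in shMock (2443) and 2453 in shMTHFD2 (1488), and the median of all genes was -0.12 for the last. The interaction, with 5 higher and 7 lower, gave 50 and 52 by DESeq2 and 172 and 149 without the filter. PPARGC1A, with 5 counts in its lowest library, is limited by depth.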
